A study of Mus musculus with 13 samples.

Results

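CD4+ T helper cells of Eomes-TKO mice treated with an antibody against 4-1BB (2 libraries) were compared with the same cells of Eomes-TKO mice given control IgG (3 libraries). The members of the comparison were taken from the labels of genotype, treatment and cell type. They are 5 of the 13 libraries of the series, and all were sorted through one gate. The construction of the Eomes-TKO line, and therefore the cells in which Eomes was deleted and the part of the gene removed, is not described in the labels. All mice received an antibody depleting NK1.1+ cells (50 µg on days −2 and 5) and were engrafted with Vk12653 myeloma cells, a transplantable mouse plasma cell tumour, on day 0. The 2 arms then received 20 µg of the 4-1BB antibody or of IgG on days 10, 13 and 16, and spleens were taken on day 18. Sorted cells carried the T cell receptor and CD4 and lacked Thy1.1, the surface marker of a Foxp3 reporter, so cells with an active reporter were left out. The other 8 libraries came from Eomes-GFP reporter mice that had the same NK1.1 depletion, tumour and Foxp3 reporter: 2 from IgG-treated mice, not divided by GFP, and 3 each of GFP-positive and GFP-negative cells from mice given the 4-1BB antibody.

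4-1BB, encoded by Tnfrsf9, is a costimulatory receptor of activated T cells that recruits TRAF adaptors and activates NF-κB. Agonist antibodies against it are used to promote the division and survival of activated T cells, and Eomes, a T-box protein, controls gene expression in cytotoxic and memory lymphocytes. A T cell that divides first induces E2F-controlled genes of DNA replication together with the histone genes of S phase, and then the kinases, motors and kinetochore proteins of mitosis. Many of the mitotic genes are controlled through a CHR element bound by the DREAM and MuvB complexes and through CCAAT boxes bound by NF-Y.

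Library size was 6080956 and 9655374 estimated counts in treated libraries 1 and 2, and 7139604 to 10129205 in the 3 IgG libraries. Levels below are CPM, counts relative to library size, scaled by edgeR's TMM factors, and 3 counts correspond to 0.296 to 0.493 CPM in the 5 libraries. Treated library 1 is the shallowest of the 5. Between 17127 and 17955 genes had a count in each library. Mitochondrially encoded RNA made up 1.63% and 2.13% of the treated libraries and 1.49% to 2.03% of the IgG libraries. The labels do not say that the libraries of an arm came from separate animals, so p-values reflect only how far libraries spread, which may in part be technical. In the main fit this spread, and with it each SE, was estimated over all 13 libraries of the series, not from the 5 Eomes-TKO libraries alone. As the cells were measured in bulk, a larger share of dividing cells and more of these RNAs per cell cannot be told apart.

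Eomes, the gene named in the genotype, was at 3.59 and 8.03 CPM in the treated libraries and at 1.36, 2.96 and 3.19 CPM in the IgG libraries. Both treated values lie above all 3 IgG values, with a log2 fold change of 1.29 ± 0.37 (SE), and the difference did not pass the test (edgeR quasi-likelihood, adjusted p = 0.674). In the undivided IgG libraries of Eomes-GFP mice Eomes was at 15.4 ± 2.01 CPM (SD, n = 2). Since the deleted part of the gene is not given, these reads do not say whether a complete Eomes transcript was present. Tnfrsf9, which encodes the antibody's target, was at 9.21 and 16.6 CPM after treatment and at 16.3, 11.7 and 14.2 CPM under IgG. The arms overlapped for Tnfrsf9 and the log2 fold change was −0.10 ± 0.29.

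Across all expressed genes a small set of mitotic genes differed between the arms in the main fit, all higher in the treated libraries. Of 14059 genes tested, 6 were higher after 4-1BB antibody at an adjusted p of 0.05 (0.0427% of those tested) and 0 were lower (0%). The 6 genes were Nusap1, Spag5, Hmmr, Aspm, Ckap2 and Cdca8. All belong to the lists of cell division genes described below, which were chosen with earlier results of these data known. At an unadjusted p of 0.05, 326 genes were higher (2.32%) and 180 were lower (1.28%). The median log2 fold change over all tested genes was 0.00, and 50.8% of them had a positive value. In 990 genes (7.04%) both treated libraries lay above all 3 IgG libraries, and in 1245 genes (8.86%) both lay below.

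The 6 calls depended on individual libraries. With a single treated library the fit takes its spread from the other groups and assumes that the lone library varies as they do. With only treated library 2 against IgG, 75 genes were called higher and 3 lower, and 52 of these 78 belonged to the cell division or histone lists. With only treated library 1 no gene was called. Leaving out IgG library 1, 2 or 3 gave 2, 0 and 3 genes called higher, not all of them among the 6. Without IgG library 1 they were Nusap1 and the immunoglobulin light chain gene Igkc. Without IgG library 3 they were Nusap1, Spag5 and a T cell receptor segment, and another such segment was called lower. DESeq2 called 61 genes higher and 2 lower, 45 of these 63 in the cell division or histone lists, whereas limma-voom called 0 genes although 311 were higher at an unadjusted p of 0.05. The 5 Eomes-TKO libraries fitted alone, with 3 residual degrees of freedom, also gave 0 calls, with 233 genes higher at an unadjusted p of 0.05.

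Nusap1 encodes a microtubule-binding protein that stabilises and bundles spindle fibres around chromosomes. Its level was 8.28 and 15.02 CPM in treated libraries 1 and 2, and 2.61, 2.07 and 2.13 CPM in the IgG libraries. Both treated libraries stood well above the IgG libraries, which were close together, and the log2 fold change was 2.37 ± 0.29 (adjusted p = 0.0134). Spag5, which encodes astrin, a protein of the spindle and of kinetochore attachment, was at 6.25 and 8.13 CPM against 1.36, 1.28 and 1.59 CPM (2.36 ± 0.32, adjusted p = 0.0226). Its treated libraries differed less from one another than those of Nusap1 did. Hmmr encodes a hyaluronan receptor that inside the cell works at spindle poles, and it was at 5.62 and 12.8 CPM against 1.25, 1.78 and 1.86 CPM (2.53 ± 0.36, adjusted p = 0.0233).

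Aspm encodes a spindle pole protein that sets spindle orientation. It was at 10.9 and 18.3 CPM after treatment and at 5.32, 4.04 and 5.71 CPM under IgG, a log2 fold change of 1.56 ± 0.24 (adjusted p = 0.0388). Ckap2, a microtubule-associated protein of the mitotic spindle, was at 4.37 and 5.94 CPM against 0.938, 1.68 and 1.33 CPM (1.97 ± 0.31, adjusted p = 0.0388). Cdca8 encodes borealin, a subunit of the chromosomal passenger complex with Aurora B, survivin and INCENP, and it was at 5.62 and 8.97 CPM against 2.19, 2.37 and 1.59 CPM (1.83 ± 0.29, adjusted p = 0.044). For each of the 6 genes the arms did not overlap, and treated library 2 was higher than treated library 1. Leaving out one library at a time, the log2 fold change of Nusap1 ran from 1.86 to 2.71 and that of Hmmr from 1.79 to 2.97, with the lower value in each case from treated library 1 alone. None of the 6 passed with treated library 1 alone or without IgG library 2. Without IgG library 1 the adjusted p stayed below 0.05 for Nusap1, at 0.0497, and was above it for the other 5. Without IgG library 3 it stayed below for Nusap1 and Spag5, at 0.0410 and 0.0450.

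**Figure D1:**
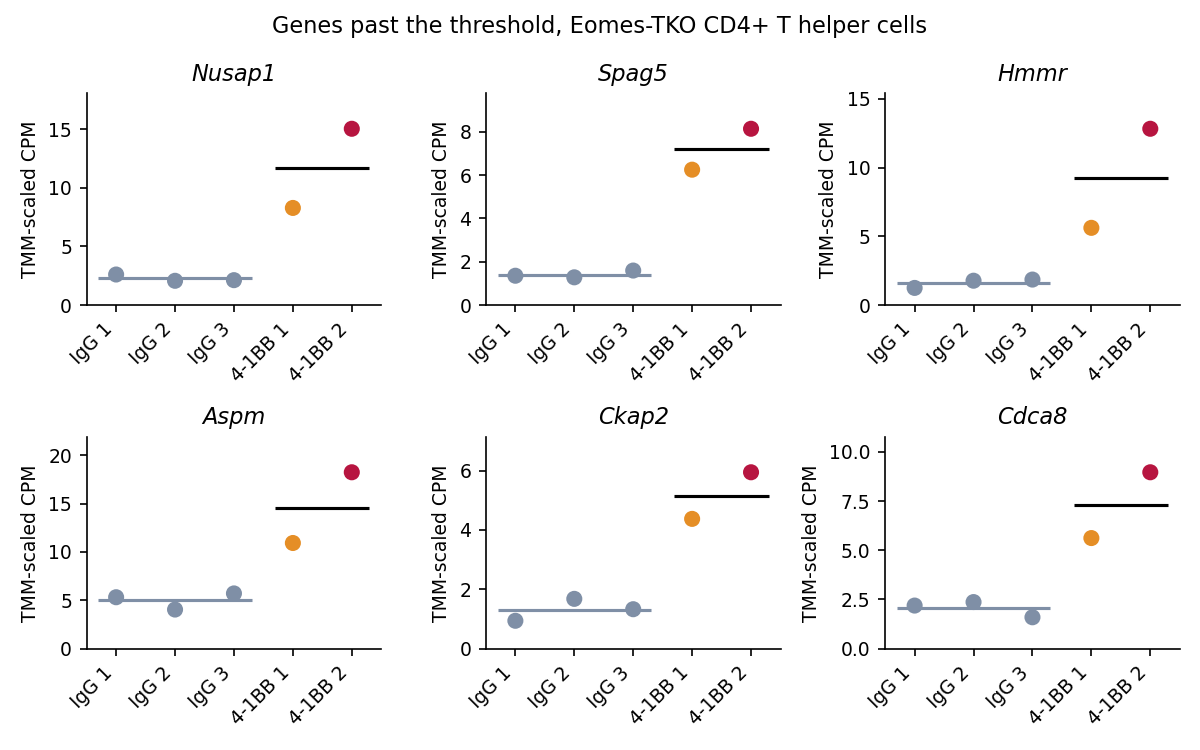
TMM-scaled CPM (linear vertical axes from 0) of the 6 genes past the threshold in the 2 libraries from 4-1BB-treated and the 3 libraries from IgG-treated Eomes-TKO mice, 1 point per library with a line at the mean of each arm. In each panel both treated libraries stand above all 3 IgG libraries, and treated library 2 is the higher of the pair, for Hmmr at 12.8 against 5.62.

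The proximal promoters of these 6 genes are shown because the genes moved together and belong to a class with shared promoter elements. The sequences are the 150 bases before the transcription start in RefSeq's table for GRCm38.p6, an older build than that of the count table, each read 5′ to 3′ on the strand of its gene. Capitals mark matches, on either strand, to the box CCAAT, whose other strand reads ATTGG, and to the CHR in its form TTTGAA or its form TTCGAA. Matches to an E2F site, searched as TTCCCGC and in its variants TTCGCGC and also TTGCCGC and lastly TTGGCGC, would be in capitals as well.
Nusap1 (chr2:119618148-119618297, plus strand): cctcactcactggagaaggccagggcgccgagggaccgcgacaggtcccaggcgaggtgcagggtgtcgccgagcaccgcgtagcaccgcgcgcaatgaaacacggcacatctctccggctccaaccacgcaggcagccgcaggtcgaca
Spag5 (chr11:78301441-78301590, plus strand): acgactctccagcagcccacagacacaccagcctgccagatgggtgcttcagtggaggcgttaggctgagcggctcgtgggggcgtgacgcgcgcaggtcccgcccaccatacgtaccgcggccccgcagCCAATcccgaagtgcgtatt
Hmmr (chr11:40733438-40733587, minus strand): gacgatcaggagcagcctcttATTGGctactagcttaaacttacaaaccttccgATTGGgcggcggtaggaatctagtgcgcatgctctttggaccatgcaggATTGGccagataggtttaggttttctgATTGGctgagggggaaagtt
Aspm (chr1:139454623-139454772, plus strand): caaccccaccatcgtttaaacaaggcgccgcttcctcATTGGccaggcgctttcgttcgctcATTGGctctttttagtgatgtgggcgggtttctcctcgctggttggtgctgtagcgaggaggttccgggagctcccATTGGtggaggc
Ckap2 (chr8:22185820-22185969, minus strand): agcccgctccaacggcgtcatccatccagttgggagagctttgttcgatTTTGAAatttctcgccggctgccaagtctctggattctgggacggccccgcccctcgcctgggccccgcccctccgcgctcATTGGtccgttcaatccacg
Cdca8 (chr4:124936918-124937067, minus strand): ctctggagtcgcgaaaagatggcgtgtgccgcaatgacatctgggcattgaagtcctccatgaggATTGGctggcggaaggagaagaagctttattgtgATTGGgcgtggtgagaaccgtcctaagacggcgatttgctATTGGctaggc

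CCAAT boxes were the most frequent match in these stretches, with 4 in Hmmr, 3 each in Aspm and Cdca8, 1 each in Spag5 and Ckap2 and none in Nusap1. Over the 250 bases before the start, 5 of the 6 promoters held a CCAAT box, against 65.8% of the 117 cell division genes matched by symbol in the table, 41.3% of the 9428 tested genes matched and 37.5% of all 27025 genes in it. A CHR in this window was present only in Ckap2, among the 6, against 34.2% of the cell division genes and 15.3% of the tested genes. The window was then extended to 50 bases after the start, a choice made after the sequences were seen, and the CHR was found in 5 of the 6 genes. It began 4 bases after the start in Spag5, 7 in Aspm, 9 in Hmmr and 14 in Cdca8, and Nusap1 had none. In the extended window 88.0% of the 25 matched spindle genes held a CHR, against 17.1% of the tested genes, and E2F matches were found in 83.3% of the matched licensing and fork genes against 19.8%. A match describes these letters only, and binding of a factor was not measured.

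Several genes lay just short of the threshold. Ncapg, a condensin subunit, was at 5.00 and 8.86 CPM against 1.36, 1.48 and 1.86 CPM (log2 fold change 2.18 ± 0.36, adjusted p = 0.0513). Plk1, the mitotic kinase polo, was at 8.59 and 12.1 CPM against 2.71, 4.04 and 3.32 CPM (1.63 ± 0.28, adjusted p = 0.058). Knl1, the kinetochore scaffold, was at 11.1 and 19.1 CPM against 4.48, 6.02 and 4.25 CPM (1.62 ± 0.28, adjusted p = 0.058). Diaph3, a formin of the actin cytoskeleton, was at 5.78 and 10.2 CPM against 3.44, 3.65 and 1.73 CPM (1.44 ± 0.29, adjusted p = 0.0919). The arms did not overlap in any of these 4. Lman2l encodes a lectin of the early secretory pathway and was the 1 gene with a negative value among the named ones next to the threshold. It was at 18.7 and 20.9 CPM after treatment and at 32.1, 32.0 and 34.3 CPM under IgG (−0.72 ± 0.14, adjusted p = 0.0754), and in contrast to the mitotic genes its treated libraries lay close together.

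**Figure D2:**
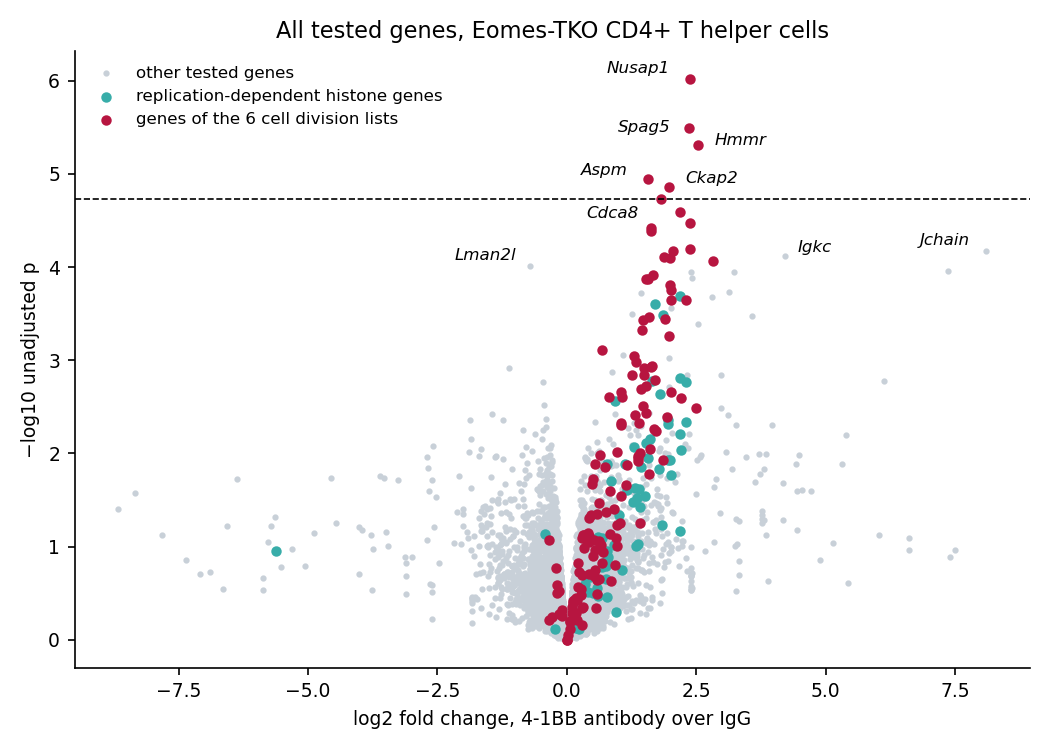
Each point is 1 of the 14059 tested genes, with the log2 fold change (4-1BB antibody over IgG) on the horizontal axis and −log10 of the unadjusted p on the vertical axis; genes of the cell division and histone lists are coloured, and the dashed line is the unadjusted p of the last gene past the adjusted threshold. The 6 called genes, Lman2l, Igkc and Jchain are named. The cell division genes lie almost wholly on the right, 130 of 142 with a positive value, and 76 of them reach an unadjusted p of 0.05.

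The cell division genes were described in 6 lists by their role. As the lists were chosen with earlier results of these data known, their counts and medians describe these libraries and are no separate evidence. All 142 members passed the filter on low counts. Of these, 6 were called higher and 0 lower, 76 were higher and 0 lower at an unadjusted p of 0.05, and 130 had a positive fold change. Both treated libraries lay above all IgG libraries in 76 members and below in 3. Over all tested genes these shares were 7.04% and 8.86%, and 2.32% were higher at an unadjusted p of 0.05. The median log2 fold change was 0.83, against 0.00 over all tested genes, and it was 0.37 with treated library 1 alone and 1.11 with treated library 2 alone.

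Spindle and microtubule genes had the largest median of the 6 lists, 1.54 over 28 members. All 28 had a positive fold change and 25 reached an unadjusted p of 0.05. The list holds 5 of the 6 called genes, which may in part reflect how it was chosen. Espl1, the separase that releases sister chromatids, was at 7.18 and 10.6 CPM against 1.46, 3.35 and 1.86 CPM (1.99 ± 0.39, adjusted p = 0.084). Kif20a, a motor of the central spindle, was at 6.40 and 12.8 CPM against 3.34, 3.75 and 2.52 CPM (1.59 ± 0.34, adjusted p = 0.123). For Tpx2, which activates Aurora A on the spindle, treated library 1 was only a little above the highest IgG library, with 5.31 and 15.8 CPM against 4.27, 3.95 and 1.46 CPM (1.71 ± 0.43, adjusted p = 0.369). Kif11, the motor that separates the spindle poles, overlapped between arms at 10.3 and 33.99 CPM against 6.05, 12.6 and 7.17 CPM.

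Regulators of G2 and mitosis came next, with a median of 1.25 over 26 members, 25 of them positive and 15 higher at an unadjusted p of 0.05. Cdk1, the mitotic cyclin-dependent kinase, was at 3.44 and 7.20 CPM against 1.15, 1.78 and 1.06 CPM (2.00 ± 0.41, adjusted p = 0.0962). Its partner Ccnb1 was at 5.62 and 11.2 CPM against 1.46, 2.27 and 1.06 CPM (2.38 ± 0.42, adjusted p = 0.0707). Bub1b, a component of the spindle checkpoint, was at 7.18 and 11.5 CPM against 2.92, 4.24 and 2.52 CPM (1.53 ± 0.30, adjusted p = 0.0754). Foxm1, a transcription factor of G2 genes, overlapped between arms, with 8.43 and 13.7 CPM against 3.96, 9.07 and 5.58 CPM, as did Cdc20, the mitotic activator of the anaphase-promoting complex.

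Among 29 kinetochore and centromere genes, Cdca8 was called and 13 reached an unadjusted p of 0.05, all higher, with a median of 0.85. Cenpf, a protein of the outer kinetochore, was at 7.03 and 20.9 CPM against 1.88, 2.27 and 1.86 CPM (2.82 ± 0.48, adjusted p = 0.0721). Birc5, which encodes survivin, was at 5.31 and 9.59 CPM against 2.09, 3.16 and 1.86 CPM (1.65 ± 0.32, adjusted p = 0.0754). Ndc80, a microtubule-binding subunit of the kinetochore, had treated library 1 level with the highest IgG library, at 10.5 and 12.8 CPM against 10.3, 6.11 and 6.91 CPM. The 10 chromosome condensation genes had a median of 0.73, and all 10 were positive.

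Mki67, which encodes the proliferation marker Ki-67 and belongs to the condensation list, was at 65.4 and 189.8 CPM after treatment and at 31.8, 43.9 and 24.7 CPM under IgG. Both treated libraries lay above all IgG libraries, but the treated libraries differed widely from one another. The log2 fold change of 1.93 ± 0.50 did not pass (adjusted p = 0.629). Top2a, the topoisomerase that untangles sister chromatids, was at 42.5 and 102.5 CPM against 22.3, 27.02 and 24.2 CPM (1.58 ± 0.28, adjusted p = 0.0754). Of the 3 markers of proliferating cells, Nusap1 and Hmmr were thus called and Mki67 was not.

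Genes of DNA replication had smaller values. The 30 licensing and fork genes had a median log2 fold change of 0.50, 27 were positive, 11 reached an unadjusted p of 0.05, all higher, and 0 were called. The 19 genes of the G1/S transition had a median of 0.46, with 6 at an unadjusted p of 0.05 and 0 called. Mcm2, a subunit of the replicative helicase, was at 61.2 and 85.9 CPM against 75.6, 68.5 and 62.2 CPM (0.10 ± 0.15). Pcna, the sliding clamp of the replication fork, was at 116.8 and 130.3 CPM against 117.7, 132.6 and 116.2 CPM (0.02 ± 0.13). The arms overlapped for both.

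Within the same lists, Rrm2, a subunit of ribonucleotide reductase, was at 14.1 and 29.1 CPM against 7.30, 11.1 and 8.90 CPM (1.27 ± 0.31, adjusted p = 0.346). Uhrf1, which maintains DNA methylation at the fork, was at 16.6 and 34.1 CPM against 11.1, 13.9 and 12.4 CPM (1.04 ± 0.31, adjusted p = 0.683). Mybl2, the MuvB partner B-Myb, was at 6.87 and 5.94 CPM against 2.71, 2.37 and 1.86 CPM (1.45 ± 0.32, adjusted p = 0.155). It is a gene of these lists in which treated library 1 was the higher of the pair, and so is Cdc6, a licensing factor, at 6.87 and 4.69 CPM against 1.98, 3.65 and 3.19 CPM. Whether the mitotic lists differ from the replication lists was not tested.

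Replication-dependent histone genes supply the nucleosomes of S phase, and 60 of 64 passed the filter. Of these, 0 were called, 33 were higher and 0 lower at an unadjusted p of 0.05, 57 were positive, and the median was 1.28. The 3 with a negative value were H2bc21, H2bc24 and H2ac13. Their summed level was 972 and 2376 CPM in treated libraries 1 and 2, and 946, 1196 and 661 CPM in the IgG libraries. The sum of treated library 1 thus lay within the IgG range, and that of treated library 2 lay above it. H3c2 was at 12.3 and 54.6 CPM against 5.11, 10.4 and 5.18 CPM (2.29 ± 0.61, adjusted p = 0.671), and H2ac8 at 4.37 and 16.2 CPM against 1.88, 2.37 and 2.79 CPM (2.17 ± 0.43, adjusted p = 0.0952). Histone genes are near-identical copies of one another, so the split of reads between them is uncertain.

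The 2 treated libraries differed in the size of their shift. Each library was expressed as log2(CPM + 0.5) minus a reference, the mean of the 3 IgG libraries for a treated library and the mean of the other IgG libraries for an IgG library. Over the 142 cell division genes the median was 0.35 in treated library 1 and 0.97 in treated library 2, and −0.15, 0.22 and −0.06 in the IgG libraries. A positive value was found for 111 of the 142 in treated library 1 and 131 in treated library 2. Treated library 2 was the higher of the pair in 127 of the 142, compared with 7103 of all 14059 tested genes. For the spindle genes the medians were 0.76 and 1.77, against −0.19, 0.25 and −0.10. For the histone genes they were 0.22 and 1.65, against −0.02, 0.48 and −0.50. By these medians treated library 1 lay inside the range of the IgG libraries for histones and outside it for the spindle genes. By summed CPM it lay inside for both, with spindle sums of 721 and 1036 CPM in treated libraries 1 and 2, against 748, 769 and 578 CPM. The 142 cell division genes summed to 4312 and 5417 CPM, against 4179, 4446 and 3958 CPM, so treated library 1 was inside here too.

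Of 10716 genes whose log2 CPM averaged at least 2, a shift of at least 2-fold upward was found for 96 in treated library 1 and 138 in treated library 2, and for 37, 19 and 140 in the IgG libraries. The 82 cell division genes at this level contributed 12 (14.6%) and 29 (35.4%) in the treated libraries, and 0, 2 and 0 in the IgG libraries. Only 17 genes were at least 2-fold higher in both treated libraries. These comprised 11 cell division genes, the histone genes H1f5, H3c3, H2ac4, H2bc9 and H2bc11, and Cit, which encodes a kinase of cytokinesis. Cit was at 8.59 and 22.2 CPM against 2.29, 5.33 and 4.12 CPM (2.00 ± 0.40, adjusted p = 0.111).

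**Figure D3:**
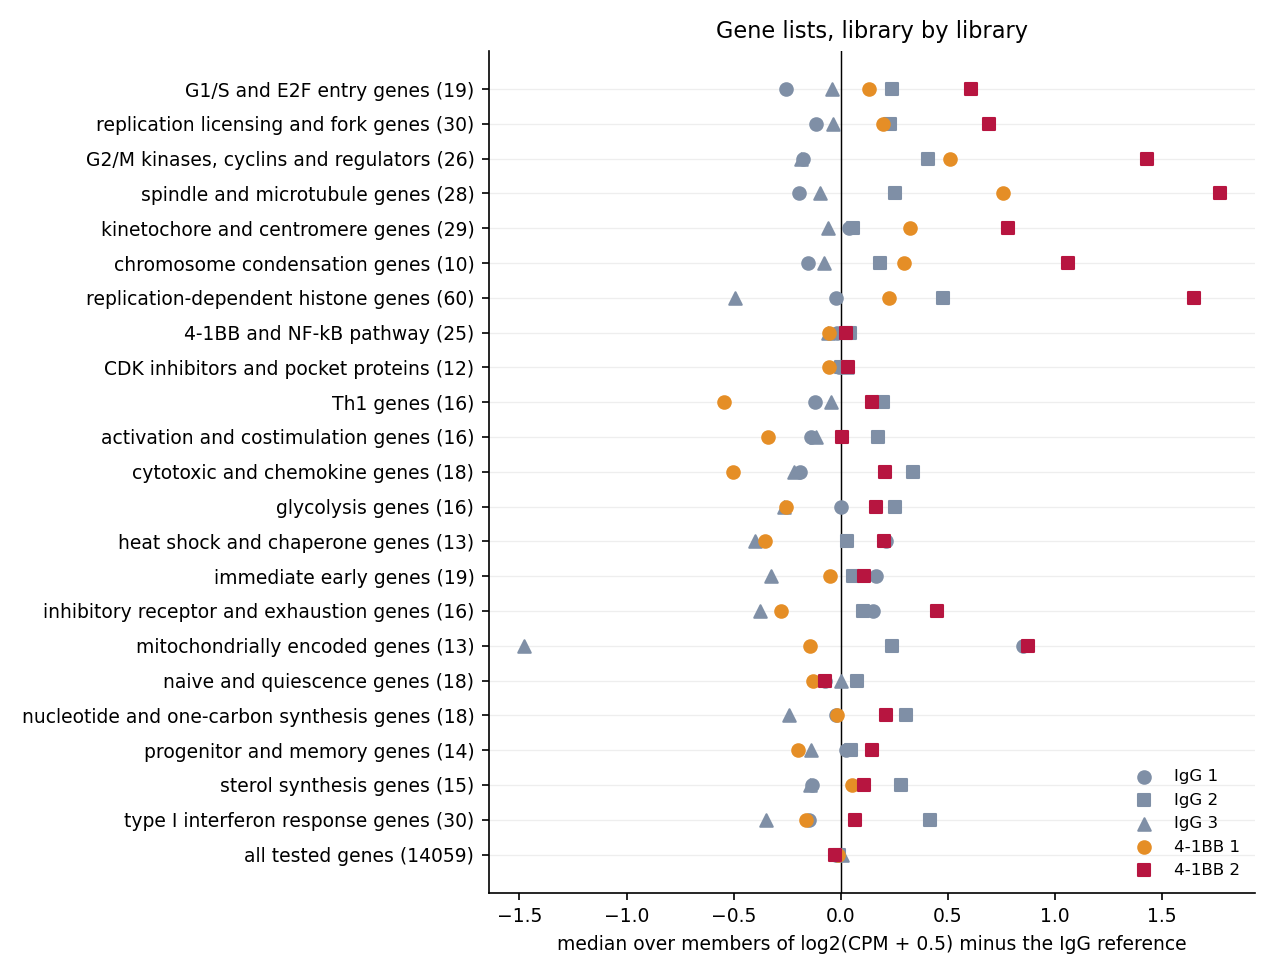
For each gene list, with the number of tested members in brackets, the horizontal axis gives the median over members of log2(CPM + 0.5) minus the IgG reference, 1 symbol per library. Both treated libraries lie right of the 3 IgG libraries for the spindle genes (0.76 and 1.77), whereas for cytotoxic genes treated library 1 lies left of the IgG libraries (−0.51) and treated library 2 among them (0.21).

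Genes that hold cells out of the cycle had a median near that of all genes. Of 12 tested CDK inhibitors and pocket proteins, 0 were called, 6 were positive, and the median was −0.00. Cdkn1b, which encodes p27, had a log2 fold change of −0.12 and Rbl2, a pocket protein of quiescent cells, −0.11. The member at an unadjusted p of 0.05 was Cdkn2c, which encodes the CDK4 and CDK6 inhibitor p18, at 6.56 and 10.4 CPM against 4.17, 3.85 and 2.66 CPM (1.26 ± 0.27, adjusted p = 0.123).

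Of 25 tested genes of the 4-1BB and NF-κB pathway 0 were called and 9 were positive, with a median of −0.05. None reached an unadjusted p of 0.05, a share that is near those of all genes (2.32% higher and 1.28% lower). Traf1, an adaptor of the receptor, had a log2 fold change of −0.11, Nfkb2, the p100 subunit of NF-κB, −0.02, and Bcl2l1, which encodes the survival protein Bcl-xL, 0.18. The cells were taken 2 days after the last antibody dose. Among 16 activation and costimulation genes, 0 were called and 2 were positive, with a median of −0.13. Treated library 1 carried this value: the median shift was −0.34 there and 0.01 in treated library 2, and the median fold change was −0.34 with treated library 1 alone and 0.00 with treated library 2 alone. Il2ra, the high-affinity receptor chain for IL-2, was at −0.52, Cd44, an adhesion receptor of activated cells, at −0.18 and Icos, a costimulatory receptor, at −0.14. The 19 immediate early genes (median 0.06), 16 glycolysis genes (−0.01), 18 nucleotide synthesis genes (0.10) and 15 sterol synthesis genes (0.06) also had 0 calls.

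The naive and progenitor programmes had medians near 0. Of 18 naive and quiescence genes, 0 were called and 7 were positive, with a median of −0.06. Tcf7, the transcription factor TCF1 of naive and progenitor T cells, was at 1579 and 2010 CPM against 1844, 1944 and 1418 CPM (0.05 ± 0.22). Ccr7, the lymph node homing receptor, had a log2 fold change of −0.19, Il7r, the receptor for the survival cytokine IL-7, −0.27 and Lef1, a partner of TCF1, 0.18. The 14 progenitor and memory genes had 0 calls and a median of 0.00. Slamf6, a surface marker of progenitor T cells, was at 278 and 243 CPM against 219, 227 and 305 CPM (0.06 ± 0.16). The arms overlapped for Tcf7, Il7r and Slamf6 and did not for Ccr7 and Lef1, and none of these passed the test (adjusted p of 1 for each).

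Among effector genes treated library 1 lay below the IgG libraries and treated library 2 among them. Of 16 tested Th1 genes 0 were called, and their median shift was −0.55 in treated library 1 and 0.15 in treated library 2, against −0.12, 0.20 and −0.05 in the IgG libraries. The 18 tested cytotoxic and chemokine genes had 0 calls and medians of −0.51 and 0.21, against −0.19, 0.34 and −0.22. Tbx21, which encodes the Th1 factor T-bet, was at 9.68 and 19.8 CPM against 16.8, 19.8 and 21.1 CPM. Ccl5, a chemokine of effector cells, was at 5.47 and 35.8 CPM against 15.01, 18.2 and 11.2 CPM, below every IgG library in one treated library and above every one in the other. Nkg7, a cytotoxic granule protein, was at 6.72 and 27.6 CPM against 18.4, 26.0 and 23.8 CPM. Gzmk, a granzyme, was at 0.312 CPM in treated library 1, within the IgG values of 0.521, 0.395 and 0.133 CPM, and at 5.01 CPM in treated library 2.

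The 16 inhibitory receptor and exhaustion genes had a median log2 fold change of 0.27 with 13 positive and 0 called. Their median shift was −0.28 and 0.45 in treated libraries 1 and 2, against 0.15, 0.11 and −0.38 in the IgG libraries, so here treated library 1 lay inside the IgG range and treated library 2 above it. Tigit was at 2.19 and 11.4 CPM against 6.36, 6.61 and 2.66 CPM, and Lag3 at 6.40 and 20.9 CPM against 17.4, 8.68 and 3.99 CPM. Foxp3, the regulatory T cell factor excluded by the sort, was at 2.66 and 1.98 CPM against 0.834, 1.48 and 2.52 CPM. The 30 type I interferon response genes had 0 calls and a median of −0.02, and the IgG libraries differed from one another (medians −0.15, 0.42 and −0.35) by more than the treated ones did (−0.16 and 0.07).

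Markers of other cell types were counted beside these results. Markers of CD4 T cells summed to 3574 and 4726 CPM in the treated libraries and to 4197 to 4813 CPM in the IgG libraries. Of 9 markers of plasma cells, a type that includes the tumour, 6 were tested and 0 called in the main fit. Of these 6, 2 had both treated libraries above all IgG libraries, and the arms overlapped for the other 4. Over all tested genes 7.04% lay above in this way and 8.86% below. Jchain, the joining chain of secreted antibody, had 30 and 31 counts in the treated libraries, at 4.69 and 3.23 CPM, and none in the IgG libraries. The treated mean was at least 36-fold higher than the 0.11 CPM that 3 counts over the IgG group give (adjusted p = 0.0707). Igkc, the kappa light chain, was at 7.34 and 15.6 CPM against 1.67, 0.0986 and 0 CPM (4.21 ± 0.69, adjusted p = 0.0707). In other settings Igkc was called higher, by DESeq2, in the non-robust fit and without IgG library 1. Jchain was called higher by DESeq2. Fn1, fibronectin, was at 2.03 and 2.61 CPM after treatment and had no count under IgG, at least 21.1-fold higher (adjusted p = 0.0754).

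The plasma cell and myeloma list summed to 366 and 461 CPM in the treated libraries and to 427, 458 and 366 CPM in the IgG libraries. Ighm, the IgM heavy chain, made up most of this sum, with 268 and 336 CPM against 334, 366 and 275 CPM, so the sum does not describe Jchain and Igkc. The heavy chains Igha, Ighg2b and Ighg2c did not pass the filter on low counts and were called higher when no filter was used. Of the other markers, Tnfrsf17 (BCMA) was at 0 in all 5 libraries, and Sdc1 (CD138) was at 0 and 0.313 CPM against 0.417, 0.296 and 0.399 CPM. Dendritic cell markers summed to 14.4 and 22.5 CPM against 5.21, 7.89 and 3.19 CPM, and 4 of 5 tested members were higher in both treated libraries than in all IgG libraries. The share of all tested genes above in this way was 7.04%, and the share below was 8.86%. H2-Ab1, an MHC class II chain, was at 3.12 and 1.67 CPM against 0.104, 0.197 and 0.266 CPM (3.58 ± 0.77, adjusted p = 0.123). Myeloid markers summed to 26.6 and 38.9 CPM against 27.7 to 28.9 CPM, and of 8 tested members both treated libraries lay above all IgG libraries in 3 and below in 1. Lyz2, a lysozyme of myeloid cells, was at 4.37 and 5.84 CPM against 0.209, 0.395 and 1.46 CPM, whereas Cd68, a lysosomal protein of macrophages, was at 4.06 and 3.44 CPM against 4.48, 4.93 and 7.17 CPM. None of the 8 passed the test. B cell markers summed to 8.28 and 16.2 CPM against 6.64 to 8.34 CPM. The summed level of the dendritic list, Jchain and Igkc were higher in both treated libraries than in all IgG libraries. The same held for the median shift of the cell division genes, but not for their summed level. Whether other cell types have a part in the division result was not tested.

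Of 10 markers of NK and innate-like T cells 6 were tested, 0 were called, 4 had a positive log2 fold change, and the median was 0.34. The list summed to 35.5 and 35.3 CPM in the treated libraries and to 42.4, 49.7 and 49.3 CPM in the IgG libraries. Both treated libraries lay above all IgG libraries for Eomes and for Tyrobp, an adaptor of NK and myeloid receptors at 0.312 and 0.939 CPM against 0, 0 and 0.133 CPM, and below them for Zbtb16 and Klrb1c. Zbtb16, the factor PLZF of innate-like T cells, was at 15.5 and 11.0 CPM against 23.6, 28.5 and 23.4 CPM (−0.94 ± 0.40), and Klrb1c, which encodes the NK1.1 antigen of the depleting antibody, was at 3.75 and 4.28 CPM against 6.57, 8.97 and 13.0 CPM (−1.23 ± 0.36). Neither passed, with adjusted p of 1 and 0.652. Over all tested genes, both treated libraries lay above all IgG libraries in 7.04% and below them in 8.86%. Only 6 genes at a mean log2 CPM of 2 or more were at least 2-fold lower in both treated libraries, Klrb1c, Klrk1, Zfp683, Mmp9, Derpc and Srp54b. For Srp54b this came from IgG library 3, at 50.6 CPM, and its arms overlapped, with 2.81 and 4.07 CPM against 4.80 and 3.75 CPM in IgG libraries 1 and 2. Klrk1, the activating receptor NKG2D, was at 2.50 and 4.07 CPM against 5.42, 9.96 and 11.0 CPM. Zfp683, which encodes Hobit, a factor of tissue-resident and innate-like lymphocytes, was at 2.97 and 4.80 CPM against 10.3, 10.4 and 11.8 CPM. Its arms were well apart, but it did not pass (adjusted p = 0.624). Jchain, Igkc, the other immunoglobulin genes, Fn1, Tyrobp, Cd68, Lyz2, Klrk1 and Zfp683 were singled out after their values were seen.

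**Figure D4:**
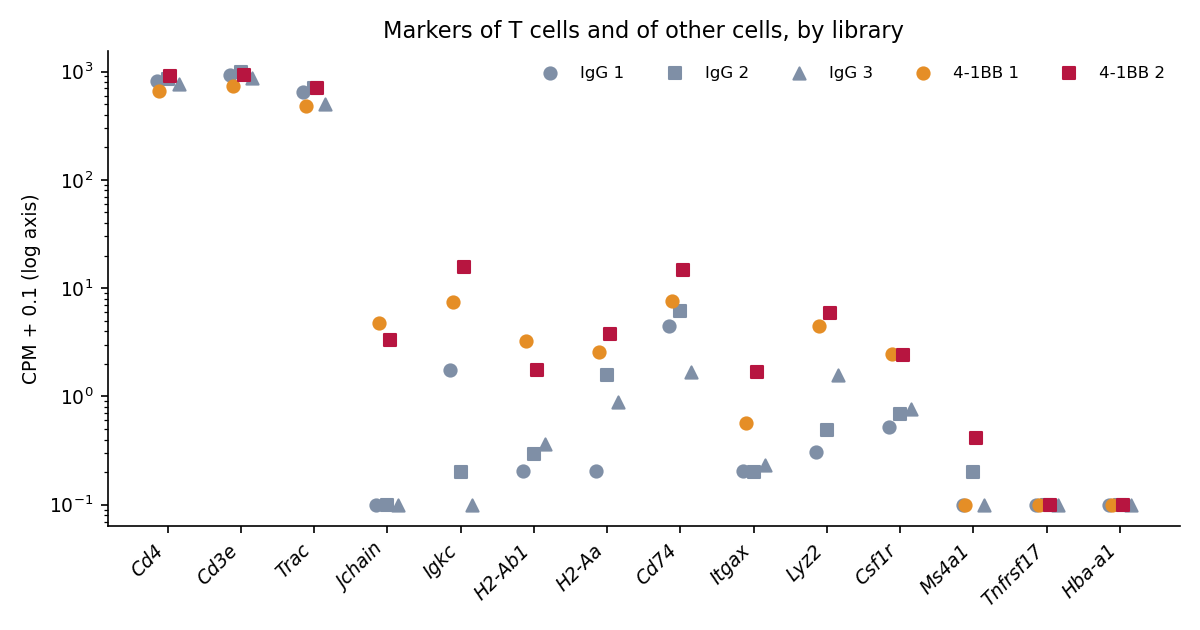
Level (CPM + 0.1, log axis) of markers of T cells and of other cell types in each of the 5 Eomes-TKO libraries. Markers of CD4 T cells overlap between the arms, Jchain has counts only in the treated libraries (4.69 and 3.23 CPM), and Tnfrsf17 and Hba-a1 are at 0 in all 5.

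The response of Eomes-TKO cells was set beside that of Eomes-GFP mice, in which the 4-1BB-treated cells had been divided by GFP and the IgG cells had not. The gates of those arms differ, so a response in Eomes-GFP mice is not a treatment effect alone. For the same reason the difference of responses is not a genotype effect alone. Both comparisons use the same IgG Eomes-GFP libraries and the same Eomes-TKO libraries. The GFP-positive and GFP-negative libraries of the same number share a prefix in their library names, a pairing that the main fit did not use. Against the GFP-negative response, 0 of 14059 genes differed (0%) by edgeR's test, 416 had an unadjusted p below 0.05, and DESeq2 called 9. The cell division genes had a median log2 fold change of 1.18 in GFP-negative cells over undivided IgG cells and 0.83 in Eomes-TKO, and the median of the per-gene difference was −0.17. For Nusap1 the response was 1.82 ± 0.29 in GFP-negative cells, a difference of 0.55 ± 0.41, and for Hmmr it was 2.13 ± 0.36, a difference of 0.40 ± 0.51.

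Against the GFP-positive response, 2635 genes differed (18.7%), 1187 with a higher response in Eomes-TKO (8.44%) and 1448 with a lower one (10.3%). Of the 142 cell division genes, 81 had a lower response in Eomes-TKO and 1 a higher one, and the median difference was −1.55. Their median fold change was 2.77 in GFP-positive cells. For Aspm the response was 3.29 in GFP-positive cells against 1.56 in Eomes-TKO, a difference of −1.73 ± 0.34 (adjusted p = 0.00244). For Nusap1 it was 3.62 against 2.37, a difference of −1.24 ± 0.42 (adjusted p = 0.0499), and for Hmmr the difference of −1.34 ± 0.52 did not pass (adjusted p = 0.0892). Of 60 histone genes 11 had a lower response in Eomes-TKO and 0 a higher one, a share of 18.3% against 10.3% over all genes.

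T cell programmes also differed from the GFP-positive response. Over all tested genes, 8.44% had a higher response in Eomes-TKO and 10.3% a lower one. Of 18 naive genes 13 had a higher response in Eomes-TKO, led by Igfbp4, a binding protein of insulin-like growth factors, with a log2 fold change of −6.77 in GFP-positive cells and −0.07 in Eomes-TKO. Of 18 cytotoxic genes 12 had a lower response, among them Gzmk with a difference of −6.07 ± 1.47 (adjusted p = 0.0146). Of 16 inhibitory receptor genes 12 had a lower response and 2 a higher one. Tnfrsf9 was at 57.3 ± 12.01 CPM in GFP-positive cells (SD, n = 3), a log2 fold change of 1.96 over undivided IgG cells. The difference of the Eomes-TKO response from this value was −2.06 ± 0.40 (adjusted p = 0.00255). In GFP-negative cells the log2 fold change of Tnfrsf9 over undivided IgG cells was −0.68. Eomes itself was at 653.7 ± 73.0 CPM in the GFP-positive cells (SD, n = 3), which were sorted on the reporter of this gene.

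**Figure D5:**
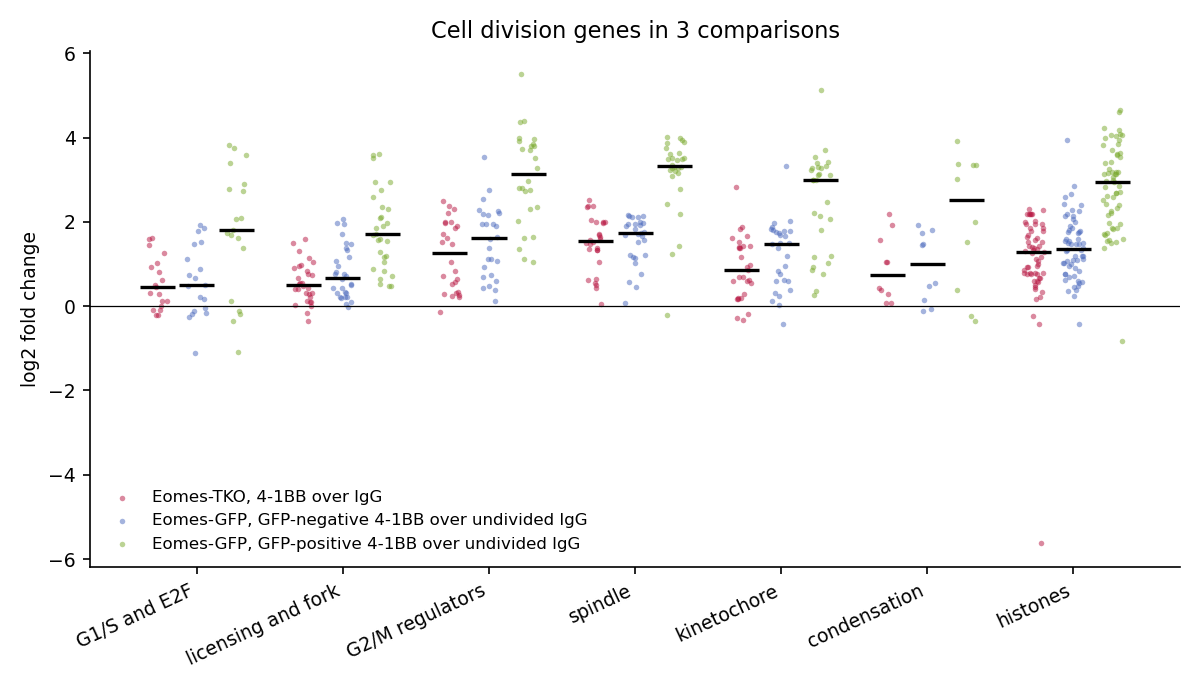
Log2 fold change of the members of each cell division list and of the histone list in 4-1BB-treated Eomes-TKO over IgG Eomes-TKO, and in GFP-negative and GFP-positive 4-1BB-treated cells over undivided IgG Eomes-GFP cells; the last 2 share their IgG libraries. The spindle genes have medians of 1.54, 1.73 and 3.32 in the 3 comparisons, and the histone genes 1.28, 1.36 and 2.95.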

How the data were processed

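RNA of sorted spleen cells was sequenced from 11 ng after ribosomal depletion, per the labels' protocols. The authors deposited estimated counts per gene. The submitters' notes on processing name STAR 2.7.10a and Salmon 1.5.2, Trim Galore 0.6.7 with cutadapt 3.4, and the GRCm39 build; the annotation and strand setting are not given in the sources used here. The table held 56748 genes in 47 library columns, of which 13 matched a sample's labels and 34 were not used. Between 6.25% and 7.33% of a library's values were not whole, and all were rounded.

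Groups came from the labels. Tests used edgeR 4.0.16 in R 4.3.3 (TMM, filterByExpr, which kept 14059 genes, robust quasi-likelihood, Benjamini-Hochberg adjustment over all tested genes at 0.05, two-sided) on all 13 libraries in 5 groups with 8 residual degrees of freedom. The standard error is the absolute log2 fold change over the root of the F statistic. Replicate pairs differed beyond counting noise (chi-square per degree of freedom 8.01 to 23.1). Floors cover counting error only. In simulated counts for this treatment contrast and its 14059 genes the test found 65 of the 66 genes set to a 4-fold change, 52 of the 67 set to 2-fold, 11 of the 67 set to 1.5-fold, and made 12 false calls. These shares may not hold for the real libraries, in which Cdk1, with a log2 fold change of 2.00, did not pass.

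The comparison and the gene lists were chosen with earlier results of these data known. Genes named are the 6 called, the next by p up to 25 whose arms did not overlap and whose log2 CPM averaged 2 or more, the genes of interest and list examples, and up to 5 per response difference; others are said to be chosen after their values were seen. Alternatives were DESeq2 1.42.0, limma-voom (limma 3.58.1), other normalizations and filters, a non-robust fit, the Eomes-TKO libraries alone, a block and each library left out. The values of 1 marker gene are not reported here.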

Additional observations from a re-analysis of the deposited data

Results flagged for a closer look

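The response of Eomes-TKO cells to 4-1BB antibody differed from that of GFP-positive cells over undivided IgG Eomes-GFP cells in 2635 genes (edgeR, test of the difference of the 2 responses, adjusted p under 0.05). All values below are log2 differences, the Eomes-TKO response minus the GFP-positive one, and the gates of the Eomes-GFP arms differ. The response was higher in Eomes-TKO for Igfbp4 by 6.70, for Treml2 by 3.97, for Ccr7 by 3.23, for Arhgef11 by 3.18 and for Tcf7 by 1.42.

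Among genes of division it was −1.73 for Aspm, −2.07 for Plk1, −1.99 for Bub1b and −1.76 for Top2a. It was −1.60 for Knl1, −1.93 for Kif20a, −1.57 for Cdca8, −1.62 for Kif22, −2.06 for Ccna2, −1.45 for Birc5, −1.24 for Nusap1 and −1.97 for the histone gene H2bc11. Other negative differences were −3.05 for Lpin1, a phosphatidate phosphatase, −4.11 for Eomes, −2.06 for Tnfrsf9 and −6.07 for Gzmk. The difference was −1.78 for Cdkn2c, which encodes a CDK inhibitor, and −1.70 for the formin gene Diaph3. Whether the sort on GFP or the genotype goes with these differences cannot be told apart.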

How the results depend on the processing

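The number of genes called higher, 6 by edgeR, was 7 with DESeq2's size factors, with a filter of 1 CPM in 2 libraries and with a non-robust fit. It was 10 with upper-quartile normalization, 224 without a filter, 61 with DESeq2, 0 with limma-voom and 0 in the Eomes-TKO libraries alone. Leaving out one library gave 0 to 75. The number called lower, 0, became 34 without a filter and 2 with DESeq2, with 0 to 3 on leaving out a library. Without a filter, 1552 genes had both treated libraries above all IgG libraries. Differences from the GFP-negative response, 0 by edgeR, became 1 with upper-quartile normalization, 87 without a filter, 1 without robust fitting and 9 with DESeq2, with 0 to 3 on leaving out a library. The count against the GFP-positive response stayed within 1.5 times of 2635 in all alternatives. The median of the cell division lists ran from 0.37 to 1.11 on leaving out a library. In the promoter window extended after the sequences were seen, CHR matches were found in 55.6% and E2F matches in 39.3% of the cell division genes.

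With the replicate number as a block, 15 genes were called higher in Eomes-TKO and 1 gene differed from the GFP-negative response. For the Eomes-TKO libraries the labels give no shared animal, litter or day for a number. In the Eomes-GFP mice, the GFP-positive and GFP-negative libraries of a number share a prefix in their library names. The main fit, by group only, did not use this pairing. Same-numbered libraries' deviations correlated at −0.10 and 0.35, but with 2 treated libraries the deviations of one mirror those of the other, so these values do not say whether the numbers pair the libraries. The causes of these changes were not tested. With 2 and 3 libraries and 6080956 counts in the shallowest, changes near 1.5-fold were mostly not detectable in simulated counts. In the real libraries larger changes also failed to pass, such as Mki67 and Cenpf with log2 fold changes of 1.93 and 2.82.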

Other observations

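A few genes stood out in single libraries, and were singled out after their values were seen. Slc15a2, a peptide transporter, had no count in treated library 1 and 24.5 CPM in treated library 2, against 14.2, 10.2 and 9.30 CPM under IgG. Srp54b, a gene with near-identical copies, was at 50.6 CPM in IgG library 3 and at 2.81 to 4.80 CPM in the other 4 Eomes-TKO libraries. Mmp9, a secreted protease of myeloid cells, was at 2.50 and 1.98 CPM after treatment and at 6.15, 6.51 and 8.24 CPM under IgG. The 13 mitochondrially encoded genes had medians of 0.85, 0.24 and −1.48 in the 3 IgG libraries relative to the others of that arm, and of −0.15 and 0.88 in the treated libraries.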
